A study of Mus musculus with 1073 samples.

Results

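ETS transcription factors were followed across the sorted cells of the mouse yolk sac, with the 9 genes Etv2, Fli1, Erg, Ets1, Ets2, Elk3, Etv6, Elf1 and Gabpa taken by name. All 9 were present among the 15967 genes of the filtered count and CPM tables. The study used full-length single-cell RNA-seq of cells caught one by one in a microfluidic chip, and 926 of 1073 captured cells entered the filtered tables, in 13 populations. Mesodermal derivatives came from Flk1-GFP/+ embryos, which carry GFP at one Kdr allele, and were sorted as Flk1-GFP+ cells, 287 in all, with 140 of them from E7.75 and the rest from E7.25. All later cells came from C57BL/6 embryos. The study's methods state that the Flk1-GFP line was kept on a C57BL/6 background too. Haematopoietic progenitors (HPC, named EMP in the sample labels) were TER119-CDH5+CD41+ at E8.25 (73 cells) and E8.5 (89 cells), and TER119-CDH5-CD45+CD41low at E9.5 (46 cells) and E10.5 (87 cells), so the gate itself switched between E8.5 and E9.5. Primitive erythroid cells (EryP) were CD41-CDH5-TER119+, with CD45- added at E10.5, and gave 66 cells at E8.5 but only 3 at E10.5. Megakaryocytes (Mk) were TER119-CDH5-CD41+ at E8.5 (37 cells) and TER119-CDH5-CD45-CD41high at E10.5 (73 cells). Macrophages (Mac) were TER119-CDH5-CD41-CD45+ at E10.5 (25 cells), and endothelium (Endo) was TER119-CD41-CDH5+ at E8.5 (79 cells) and also CD45- at E10.5 (61 cells). Yolk sacs were pooled, and no cell is tied to an embryo, litter or pool, so each population counts as 1 sample. No test was run between populations, and each interval given for a share is an exact binomial 95% interval that covers counting error only.

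ETS factors share a winged helix-turn-helix DNA-binding domain that reads a GGAA core, written TTCC on the other strand. Etv2 is needed in the early mesoderm for both blood and endothelium and is known for a brief window of activity there. Fli1 and Erg are close relatives that later maintain endothelial and haematopoietic genes, and Fli1 also drives megakaryocyte genes. Ets1 and Ets2 respond to RAS/MAPK signalling and act in endothelium. Elk3 is a ternary complex factor that can repress, Etv6 is a repressor needed in haematopoiesis, Elf1 acts in blood cells, and Gabpa is the DNA-binding subunit of the broadly used GABP complex.

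The promoters of Etv2, Erg, Etv6 and Elf1 are shown because these genes had different patterns over the populations and because their RefSeq start is the start of the gene in the GENCODE annotation used here. Each run is the 250 bases before the start, 5′ to 3′ on the strand of the gene, from RefSeq on GRCm38.p6, with every GGAA or TTCC in capitals.
Etv2, chr7:30635853-30636102, minus strand: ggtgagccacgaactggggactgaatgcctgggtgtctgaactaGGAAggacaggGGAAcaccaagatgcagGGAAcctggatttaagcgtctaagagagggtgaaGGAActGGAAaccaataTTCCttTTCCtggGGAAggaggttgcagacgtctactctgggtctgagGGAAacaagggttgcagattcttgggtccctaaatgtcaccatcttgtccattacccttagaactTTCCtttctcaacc
Erg, chr16:95586594-95586843, minus strand: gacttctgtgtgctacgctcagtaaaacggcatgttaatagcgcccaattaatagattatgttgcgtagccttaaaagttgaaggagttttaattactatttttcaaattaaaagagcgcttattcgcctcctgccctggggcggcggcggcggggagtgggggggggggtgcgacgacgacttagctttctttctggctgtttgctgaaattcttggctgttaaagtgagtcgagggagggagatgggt
Etv6, chr6:134035450-134035699, plus strand: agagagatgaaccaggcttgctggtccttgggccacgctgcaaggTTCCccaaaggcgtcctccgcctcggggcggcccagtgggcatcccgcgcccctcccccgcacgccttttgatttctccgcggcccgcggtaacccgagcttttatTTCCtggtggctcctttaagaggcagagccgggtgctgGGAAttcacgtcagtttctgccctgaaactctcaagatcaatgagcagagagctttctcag
Elf1, chr14:79480944-79481193, plus strand: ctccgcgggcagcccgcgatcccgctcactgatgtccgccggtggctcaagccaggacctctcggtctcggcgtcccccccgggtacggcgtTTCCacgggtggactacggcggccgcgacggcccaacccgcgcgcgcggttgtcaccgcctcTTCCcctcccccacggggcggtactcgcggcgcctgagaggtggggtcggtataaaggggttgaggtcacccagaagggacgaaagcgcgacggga
The Etv2 window held 10 GGAA or TTCC matches, a number reached by 0.192% of the 32851 windows of the same length in the promoter table. The Etv6 window held 3, which is the median over all windows, the Elf1 window held 2, and the window at the most distal Erg start held 0. At least 1 match was present in 93.45% of all windows. The longer ETS form CCGGAA, which contains the core and was also read on both strands, was absent from these 4 windows and present in 12.03% of all, and the GATA form AGATAA, read on both strands, was also absent from them and present in 9.988% of all. Windows at further RefSeq starts, not shown, held 4 and 2 GGAA or TTCC matches for Erg and 0 for Elf1. The Erg window with 2 also held an AGATAA. A match is a string of letters and not a bound site, and the absence of one says only that these letters are not in the window.

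Depth and labels were looked at before the genes. Counts per cell ran from 483830 to 5943204 (median 1887347). The marker lists mostly followed the sort gates, with several points that touch the ETS results. All 5 primitive erythroid markers were found in E8.5 Mk, at a summed 34950 CPM against 110000 in E8.5 EryP and 336 in E10.5 Mk. The same markers summed to 4549 CPM in E8.25 HPC and 3808 in E8.5 HPC, against 0.9967 in E9.5 HPC. Megakaryocyte markers summed to 389 CPM in E8.5 Mk, the highest of the E8.5 populations, against 6125 in E10.5 Mk. All 5 endothelial markers were found in most cells of E8.25 and E8.5 HPC, whose gate requires CDH5, at 843 and 516 summed CPM against 2347 in E8.5 Endo. Xist and Y-linked transcripts, which cells of one sex should not share, were seen together in 293 of the 926 cells, from 0 of 3 in E10.5 EryP to 59 of 79 in E8.5 Endo; no doublet caller was run. The 96 index pairs were used again in 2 or more of the 14 lanes. A population filled 1 lane of 1 of 2 flow cells, except for both Flk1-GFP+ populations with 2 lanes each and for E10.5 Mac and EryP, which shared a lane, so a stage cannot be told apart from its run.

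Etv2 was highest in the mesodermal derivatives, and its mean was lower in every later population. At least 1 count was present in 68.7% of E7.25 cells (interval 60.6 to 76.1%) and in 88 of 140 E7.75 cells (62.9%, 54.3 to 70.9%). Single-cell values at E7.25 ran from 0 through a median of 4.84 to 463 CPM, with a mean of 29.6 CPM, and those at E7.75 from 0 through 2.11 to 203 CPM, with a mean of 15.4 CPM. The distribution was uneven, since the 10% of cells with the highest values held 65.9% of all Etv2 CPM in E7.25 cells and 64.7% in E7.75 cells. The log2 ratio of mean CPM + 1 was -0.90 for E7.75 over E7.25 and so did not reach 2-fold, and the intervals of the 2 shares overlapped. The 2 lanes of E7.75 had means of 22.2 and 11.2 CPM and shares of 73.6% and 56.3%, and the gap between their shares was wider than that between the 2 stages. At E7.25 the lanes had means of 33.0 and 26.2 CPM.

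Etv2 was also found at a low level in the early CDH5+ progenitors and in E8.5 megakaryocytes. Detection was 50.7% in E8.25 HPC (38.7 to 62.6%), 60.7% in E8.5 HPC (49.8 to 70.9%) and 51.4% in E8.5 Mk (34.4 to 68.1%), with mean levels of 5.47, 4.55 and 5.89 CPM. The highest cells of these populations reached 70.5, 26.9 and 41.1 CPM. The intervals of these 3 shares overlapped one another and that of E7.75. At 10 counts or more the shares were 28.8, 24.7 and 32.4%, against 34.3% at E7.75. Without the cells that held Xist and Y-linked transcripts, Etv2 was found in 24 of 47 E8.25 HPC (51.1%) and 29 of 49 E8.5 HPC cells (59.2%). In E8.5 Mk that left 8 of 21 cells (38.1%). In E9.5 HPC Etv2 was found in 9 of 46 cells (19.6%, 9.36 to 33.9%) at a mean of 1.00 CPM (0.532 CPM without the highest cell), and in E10.5 HPC in 8 of 87 cells (9.20%, 4.05 to 17.3%) at 0.502 CPM. E10.5 Mk had Etv2 in 13 of 73 cells (17.8%, 9.84 to 28.5%) and E8.5 Endo in 14 of 79 cells (17.7%, 10.0 to 27.9%), at 1.27 and 2.21 CPM. Where it was found in E8.5 Endo the median was 18 counts, and 8 of the 79 cells had 10 counts or more.

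In 4 populations no Etv2 count was seen. None of 66 E8.5 EryP cells had one, which allows a share of up to 4.545%, and none of 61 E10.5 Endo cells did, which allows up to 4.918%. The 25 E10.5 Mac cells allow up to 12%, and 3 E10.5 EryP cells set no useful limit. E8.5 EryP was sequenced on the same flow cell as the early progenitors and E8.5 Mk in which Etv2 was found, and had from 1303515 to 3017274 counts per cell. Thinning every cell to 840000 counts kept the order of the shares within the progenitors, at 47.2, 55.1, 13.3 and 9.86% from the earliest stage to the latest. E8.5 Mk, with a median of 3536330 counts per cell before thinning, then had Etv2 in 45.95% of cells.

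**Figure D1:**
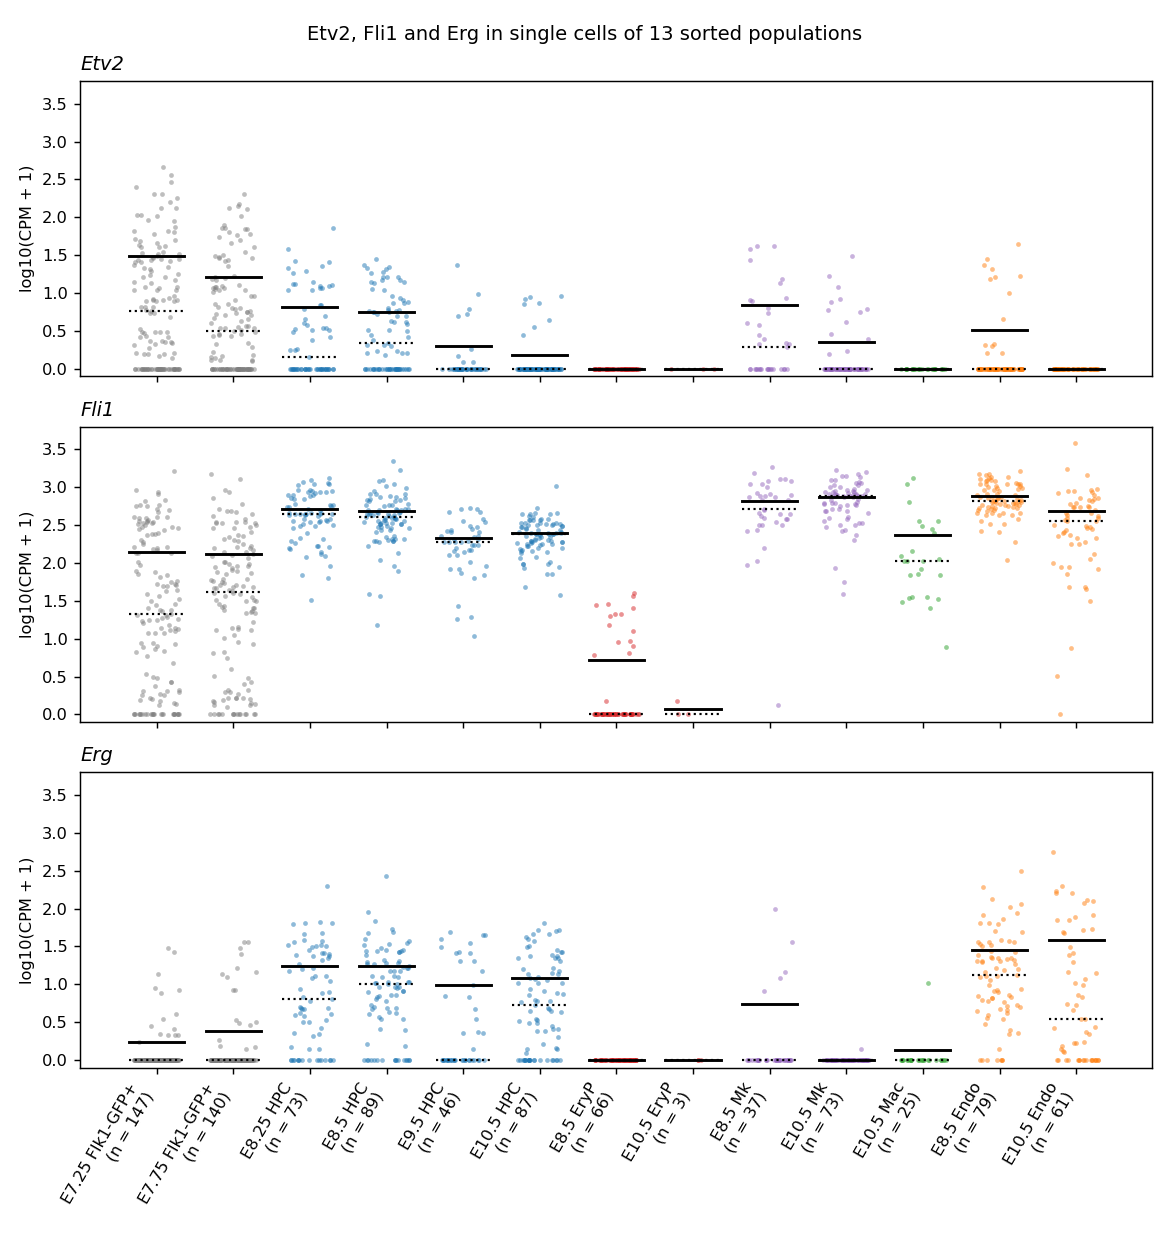
Single-cell values of Etv2, Fli1 and Erg in the 13 populations, as log10(CPM + 1) on the y axis with 1 point per cell, a solid line at the mean and a dotted line at the median over cells. Etv2 has fewer points above zero in E9.5 and E10.5 HPC than in Flk1-GFP+ cells and earlier HPC. None lie above zero in EryP, Mac and E10.5 Endo, while some do in Mk and E8.5 Endo. Fli1 points leave the zero line in HPC, Mk, Mac and Endo but mostly stay on it in EryP. Erg points are raised in HPC and Endo.

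Fli1 was found in most cells of every population other than EryP, at its highest means in E8.5 endothelium and in megakaryocytes. E7.25 cells had a Fli1 count in 83.0% of cases (75.9 to 88.7%) and ranged from 0 to 1631 CPM (median 20.1, mean 137.6). E7.75 cells had one in 89.3% (82.9 to 93.9%) and ranged from 0 to 1481 CPM (median 40.3, mean 129.7). Every cell of all 4 HPC populations, both Mk populations, E10.5 Mac and E8.5 Endo had a Fli1 count, as did 60 of 61 cells of E10.5 Endo. The mean was 510 CPM in E8.25 HPC and 477 CPM in E8.5 HPC, where the lowest cells still had 31.7 and 14.2 CPM, and then 211 CPM in E9.5 HPC and 251 CPM in E10.5 HPC. The highest means were 765 CPM in E8.5 Endo, 734 CPM in E10.5 Mk and 663 CPM in E8.5 Mk. E10.5 Endo had 479 CPM and E10.5 Mac 232 CPM. Values in E8.5 Mk ran from 0.340 through a median of 520 to 1869 CPM.

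Primitive erythroid cells stood apart. Fli1 was found in 16 of 66 E8.5 EryP cells (24.2%, 14.5 to 36.4%) at a mean of 4.15 CPM, and in 1 of 3 E10.5 EryP cells with a single count. The ratio of mean CPM was 185 for E8.5 Endo over E8.5 EryP, 160 for E8.5 Mk and 115.1 for E8.5 HPC. These 3 ratios share the E8.5 EryP cells as their denominator. E8.5 Mk, which also held erythroid transcripts, had the third highest Fli1 mean of all 13 populations.

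Erg came later than Fli1 and marked fewer lineages. Only 15 of the E7.25 cells (10.2%, 5.83 to 16.3%) and 18 of 140 E7.75 cells (12.9%, 7.80 to 19.6%) had it, with means of 0.709 and 1.44 CPM. The 4 HPC populations, taken by stage, had shares of 78.1% (66.9 to 86.9%), 82.0% (72.5 to 89.4%), 45.7% (30.9 to 61.0%) and 74.7% (64.3 to 83.4%), with means of 16.5, 16.5, 8.63 and 11.1 CPM, so that only the E9.5 interval lay below the others. E8.5 Endo had Erg in 91.1% of cells (82.6 to 96.4%; 0 to 308 CPM, median 12.3, mean 27.7). E10.5 Endo had it in 70.5% (57.4 to 81.5%; 0 to 549 CPM, median 2.53, mean 37.4), so that its mean was higher and its median lower than at E8.5. Erg was found in 5 of 37 E8.5 Mk cells (13.5%, 4.54 to 28.8%), in 1 of 73 E10.5 Mk cells with 1 count, in 1 of 25 Mac cells, and in none of the 66 E8.5 EryP cells, which allows up to 4.545%. The mean of 4.47 CPM in E8.5 Mk was 1.84 CPM without the highest cell.

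The 3 genes could be counted in the same cell. Among E7.25 cells, Etv2 was found together with Fli1 in 83 (56.5%), without Fli1 in 18 (12.2%), and Fli1 without Etv2 in 39 (26.5%), while 7 (4.76%) lacked both. At E7.75 the numbers were 78 (55.7%), 10 (7.14%), 47 (33.6%) and 5 (3.57%) of 140 cells. From E8.25 on, no cell had Etv2 without Fli1. Fli1 was found in every cell of each later population that had any Etv2, so this follows from the Fli1 shares alone. Etv2, Fli1 and Erg were found together in 11 E7.25 and 13 E7.75 Flk1-GFP+ cells, but in 30 of 73 E8.25 HPC cells (41.1%) and 44 of 89 E8.5 HPC cells (49.4%), against 5 of 46 E9.5 HPC cells and 7 of 87 E10.5 HPC cells. In HPC, where every cell had Fli1, these are simply the counts of Etv2 with Erg. Of the 926 cells, 1 had Erg without Fli1, and it was an E7.25 cell. Without the cells that held Xist and Y-linked transcripts, which were 26 of 73 and 40 of 89, all 3 genes were found in 21 of 47 E8.25 HPC cells (44.7%) and 22 of 49 E8.5 HPC cells (44.9%). Etv2 without Fli1 was again seen only in Flk1-GFP+ cells, as the Fli1 shares again required.

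**Figure D2:**
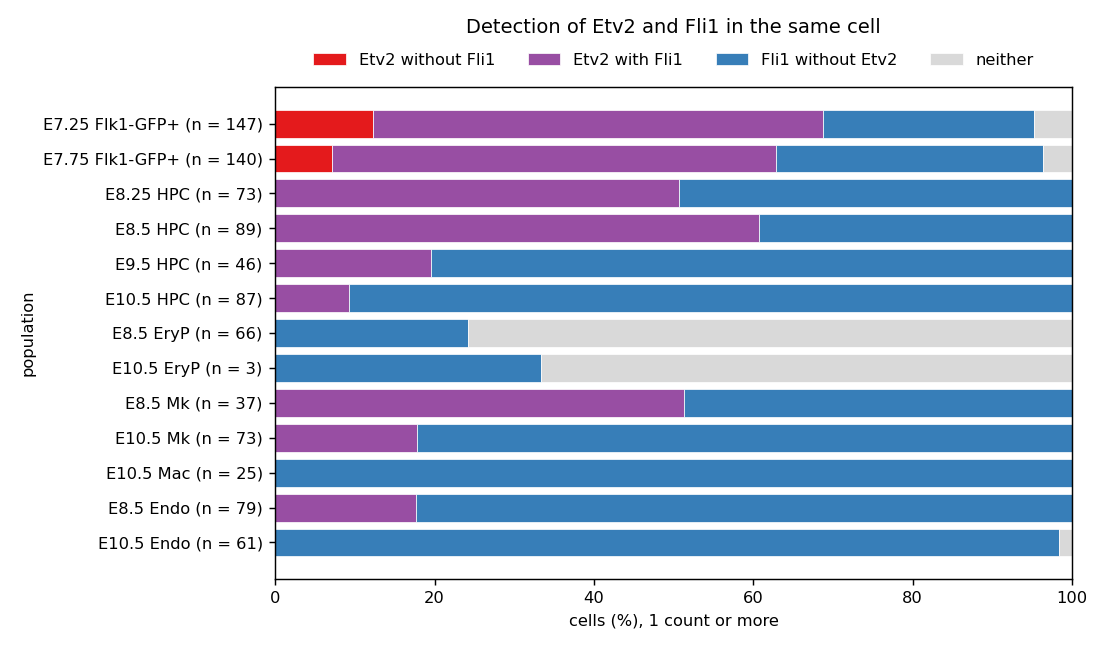
Cells of each population split by detection of Etv2 and Fli1 at 1 count or more, as a percent of the cells on the x axis. Cells with Etv2 alone occur at E7.25 (12.2%) and E7.75 (7.14%), and cells with neither gene make up 75.8% of E8.5 EryP.

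At 1 count or more, Fli1 was found about as often in cells without Etv2 as in cells with it. Its share at E7.25 was 82.2% with Etv2 and 84.8% in the 46 cells without, and its share at E7.75 was 88.6% in 88 cells with Etv2 and 90.4% in 52 without. Elk3 differed more, with 29.7% of cells with Etv2 (21.0 to 39.6%) against 6.52% without (1.37 to 17.9%) at E7.25, and 38.6% against 19.2% at E7.75. The Elk3 difference was 25.5 and 22.6 percentage points in the 2 lanes of E7.25, but -1.83 and 26.2 points in those of E7.75. Erg had 11.9% against 6.52% at E7.25 and 14.8% against 9.62% at E7.75, with intervals that overlapped. The Fli1 result depended on the cut. At 10 counts or more, Etv2 was found in 49.7%, Fli1 in 66.0% and both in 38.1% of E7.25 cells. At that cut Fli1 was found more often in E7.25 cells with Etv2 than in those without. At E7.75 the shares were 34.3%, 72.1% and 24.3%, and Fli1 was again about as frequent in both.

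Genes that ETS factors are known to bind in endothelium and blood were taken as a list of 24, all present in the tables. At E7.25, 14 of them were found in between 10 and 90% of cells, and all 14 were found more often in cells with Etv2, by a median of 12.0 percentage points; over all 8672 genes in that range 65.89% were found more often, by a median of 3.33 points. At E7.75 it was 14 of 16 with a median of 10.1 points, against 60.57% of 8730 genes and 2.10 points. Cells with Etv2 were a little deeper, with median counts of 1838977 against 1753979 at E7.25 and 2054700 against 2017803 at E7.75. After thinning the counts were 14 of 14 at E7.25 and 13 of 16 at E7.75. The share of all genes found more often was then 67.48% of 8961 at E7.25 and 65.19% of 8829 at E7.75. The largest mean among the listed genes at E7.25 was that of Kdr, the VEGF receptor behind the sort (109.5 CPM), and Tek, the angiopoietin receptor, led at E7.75 (83.2 CPM).

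Ets1 was the most abundant of the 9 in endothelium by CPM. It had 1605 CPM in E8.5 Endo (15.1 to 5876, median 1595) and 987 CPM in E10.5 Endo (0.612 to 4077, median 576), and was found in every cell of both. Flk1-GFP+ cells had 508 and 457 CPM, with 98.6% of cells positive at both stages. The HPC means by stage were 606, 279, 28.4 and 98.2 CPM, and the medians were 259, 232, 0.272 and 0.674 CPM (the E10.5 mean was 63.9 CPM without the highest cell), with the break at the change of gate. In E9.5 HPC the 10% of cells with the highest values held 89.7% of the Ets1 CPM. Unlike Fli1 and Erg, Ets1 was well detected in E8.5 EryP, in 48 of 66 cells (72.7%, 60.4 to 83.0%) at 137.7 CPM.

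Ets2 and Elk3 were also high in endothelium. Ets2 had 112.9 CPM in E8.5 Endo (median 91.3) and 207 CPM in E10.5 Endo (median 74.6), against 6.75 CPM in E10.5 Mk to 53.6 CPM in E8.25 HPC among the other populations with more than 3 cells. Elk3 had 135.5 CPM in E8.5 Endo (0 to 408, median 113.6) and 418 CPM in E10.5 Endo (0 to 1810, median 316), and was found in 98.7% and 98.4% of their cells. In Mk it was found in 5 of 37 cells at E8.5 and 7 of 73 at E10.5, at 0.350 and 0.802 CPM, and in E8.5 EryP in 4 of 66 cells. HPC were intermediate, from 16.3 CPM at E9.5 to 43.7 CPM at E8.25. E10.5 Mac had a mean of 864 CPM but a median of 3.27, and a single cell of 21160 CPM made that mean, which was 18.7 CPM without it.

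Elf1 and Etv6 had higher means in HPC and Mk than in endothelium. Elf1 was found in 21.8% and 16.4% of Flk1-GFP+ cells, with means of 3.00 and 2.90 CPM (1.64 CPM at E7.75 without the highest cell), and then in 74.0% of E8.25 HPC, 92.1% of E8.5 HPC, 97.8% of E9.5 HPC and all 87 cells of E10.5 HPC, with means of 61.7, 97.4, 201 and 250 CPM and medians of 23.8, 66.6, 140 and 234 CPM. Mk had 100.1 CPM at E8.5 and 254 CPM at E10.5, and Mac 123.5 CPM. Endothelium had 13.5 and 10.2 CPM, with medians of 0, and the E8.5 mean was 8.72 CPM without the highest cell. Etv6 had 108.5, 112.9, 237 and 102.4 CPM in HPC from E8.25 to E10.5, with 95.4% or more of cells positive, 80.3 and 106.9 CPM in Mk, and 56.2 and 50.6 CPM in Endo, where its median was 14.6 CPM at E8.5 and 0.241 CPM at E10.5. Its E9.5 HPC mean was 199 CPM and its E10.5 Endo mean 28.6 CPM without the highest cell. By mean, E10.5 Mac lay below endothelium for Etv6, at 29.75 CPM (18.9 CPM without the highest cell). The Mac median of 6.84 CPM and share of 92.0% were above those of E10.5 Endo, at 0.241 CPM and 50.8%. In E8.5 EryP Etv6 was found in 14 of 66 cells at 1.81 CPM.

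Gabpa varied least of the 9 by the ratio of its highest to its lowest mean. Its means lay between 37.6 CPM in E10.5 Mac and 86.1 CPM in E8.5 EryP over the populations with more than 3 cells, and it was found in 78.1 to 96.0% of their cells, except in E10.5 Endo with 45.9% (33.1 to 59.2%). In the 3 cells of E10.5 EryP it had 0, 173 and 327 CPM.

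**Figure D3:**
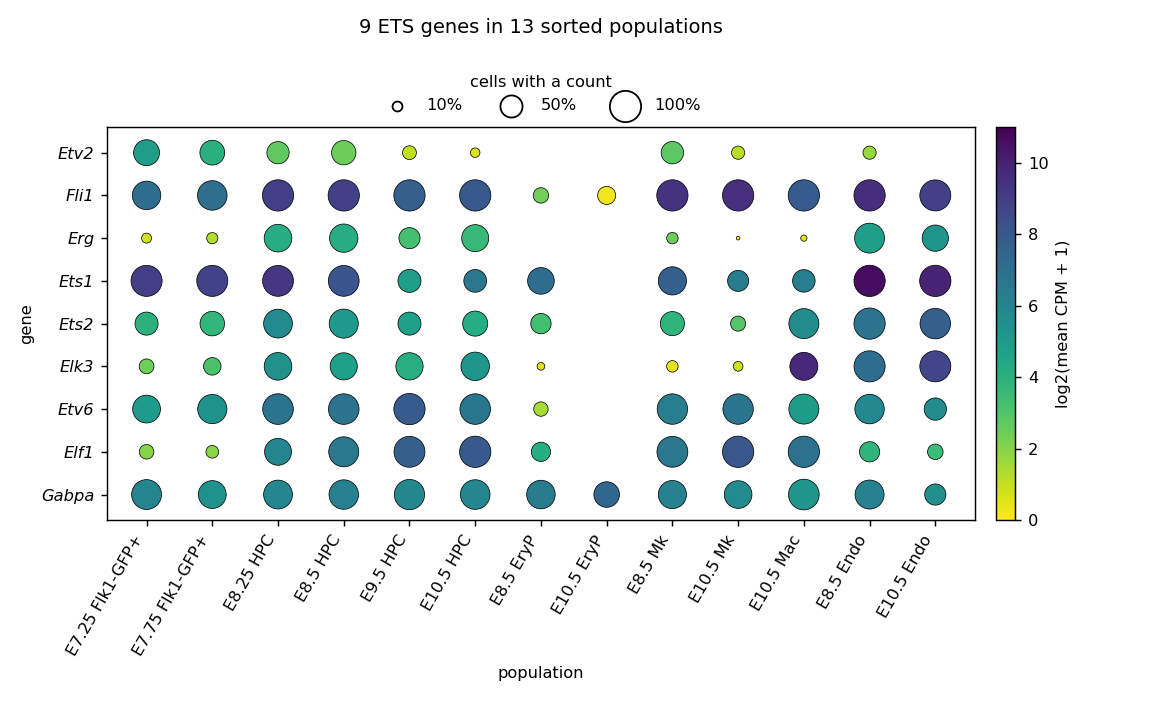
The 9 genes (y axis) in the 13 populations (x axis), with the area of a dot for the percent of cells with a count and its colour for log2(mean CPM + 1). Erg and Elk3 leave gaps in EryP and Mk, Elf1 is weak in Flk1-GFP+ cells and Endo, and the dark Elk3 dot of E10.5 Mac rests on 1 cell.

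Levels were compared between genes per kb of exon, by GENCODE M21 exon lengths from 1048 bases for Etv2 to 8476 bases for Ets1. The study's methods name an Ensembl genome version and not GENCODE M21, so the gene models behind the counts can differ from these. Ets1 led at E7.25 with 60.0 CPM per kb (40.5% of the sum over the 9 genes), ahead of Fli1 with 39.5 (26.6%) and Etv2 with 28.2 (19.0%). The same order held at E7.75, with Etv2 at 14.7 CPM per kb (11.8%). These orders are of means. By medians over cells Ets1 led at both stages with 72.2% and 61.8%, Fli1 had 9.00% and 21.7%, and Etv2 had 7.21% and 3.78%, below Gabpa with 9.14% and 7.52%. Fli1 led in all 4 HPC populations (38.9 to 58.0% of the sum), in both Mk populations (72.1 and 72.9%) and in both Endo populations (44.6 and 33.5%), where Ets1 was next (38.5 and 28.4%). Elf1 took 22.7% in E10.5 HPC and Etv6 25.6% in E9.5 HPC. In E8.5 EryP the sum was 37.1 CPM per kb, against 492 in E8.5 Endo, and Ets1 (43.8%) and Gabpa (40.8%) made up most of it. Elk3 led in E10.5 Mac with 62.5%, which rests on the 1 cell already named.

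**Figure D4:**
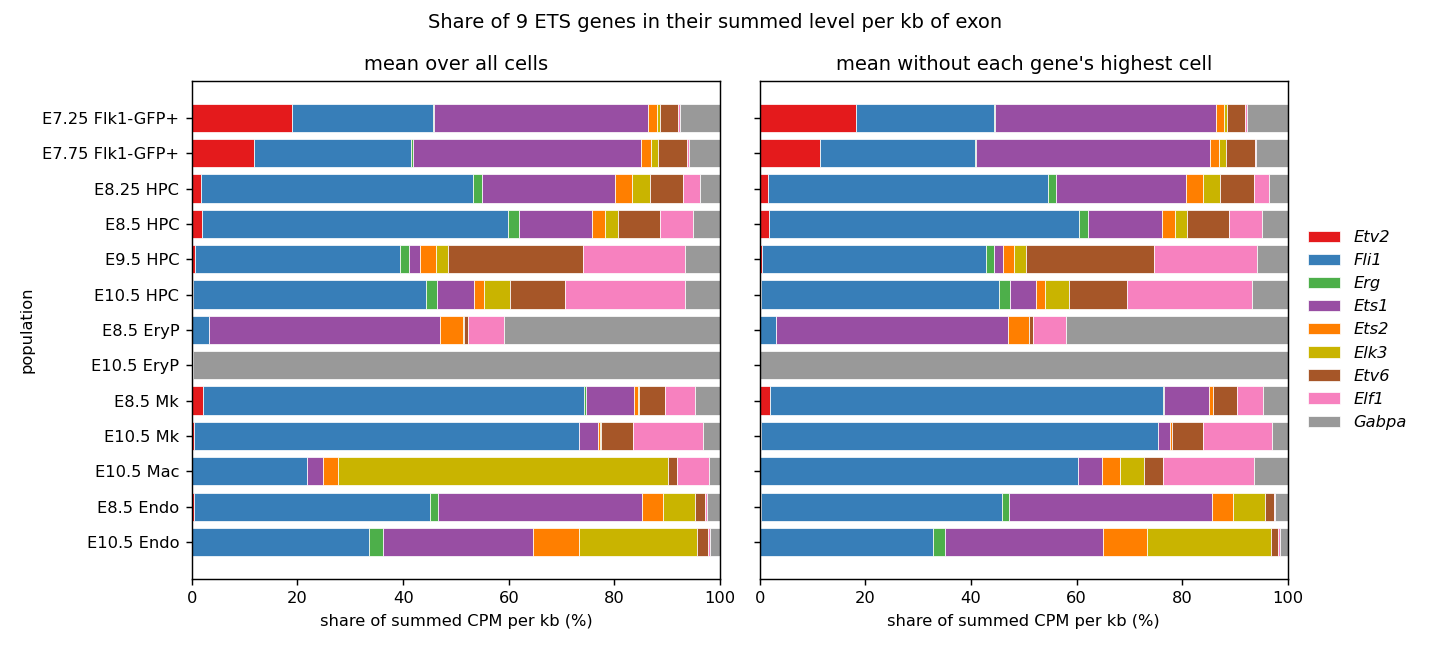
Share of each of the 9 genes in their summed CPM per kb of exon (x axis, percent) in each population, from the mean over all cells on the left and without each gene's highest cell on the right. Fli1 is the widest bar in HPC, Mk and Endo in both panels, and the Elk3 bar of E10.5 Mac is wide only on the left.

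15 pairs of populations were then compared by the log2 ratio of mean CPM + 1, with 2-fold as the bound for counting a gene as higher or lower, among genes averaging at least 1 CPM on one side. Between E7.25 and E7.75, none of the 9 genes passed 2-fold, where 13.5% of 13967 genes did. From E8.25 to E8.5 HPC 1 of 9 did (12.2% of all genes), which was Ets1, with 279 against 606 CPM (log2 ratio -1.12). From E8.5 to E9.5 HPC 5 of 9 did (28.5% of all genes). Etv2 (-1.47), Fli1 (-1.18) and Ets1 (-3.25) were lower and Etv6 (1.07) and Elf1 (1.03) were higher; without the highest cell the ratios of Etv6 and Elf1 were 0.87 and 0.96. From E9.5 to E10.5 HPC 3 of 9 did (19.4% of all genes), with Ets1 (1.75) and Elk3 (1.11) higher and Etv6 (-1.21, or -0.99 without the highest cell) lower.

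Within the other lineages, the later stage was compared with the earlier. From E8.5 to E10.5 Endo 2 of 9 passed 2-fold, where 40.1% of all genes did; Elk3 was higher (1.62), and Etv2 was lower, with a mean of 2.21 CPM at E8.5 and no count in the 61 later cells. From E8.5 to E10.5 Mk 4 of 8 did (32.6% of all genes), with Etv2 (-1.60), Erg (-2.44) and Ets1 (-1.18) lower and Elf1 (1.34) higher. From E8.5 to E10.5 EryP, 5 of 6 were lower, where 59.5% of all genes were lower, and only 3 cells stand behind the later stage.

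Lineages of one stage were compared next. Over E8.5 EryP, 7 of 9 genes were higher in Endo (30.1% of all genes), 8 of 9 in HPC (23.7%) and 5 of 8 in Mk (17.7%), and 0 were lower in any of these 3, where 17.6% of all genes were lower in Endo, 8.55% in HPC and 1339 of 12741 in Mk. Etv2 and Erg had no count in E8.5 EryP, so no fold is given for them. Between E8.5 Endo and E8.5 HPC, 4 of 9 passed 2-fold (31.6% of all genes), with Ets1 (2.52), Ets2 (1.74) and Elk3 (2.33) higher in Endo and Elf1 (-2.77) lower; Etv6 was at -0.99, or -1.19 without the highest cell. E8.5 Mk had 3 of 9 below E8.5 HPC, Erg (-1.67), Ets2 (-1.25) and Elk3 (-4.33), where 16.5% of all genes were lower. At E10.5, Endo differed from Mk in 7 of 9 genes (52.1% of all genes) and from HPC in 6 of 8 (51.2%), in each with Erg, Ets1, Ets2 and Elk3 higher and Etv6 and Elf1 lower in Endo. Etv2 was also lower in Endo than in Mk (-1.18), but the ratio was -0.91 without the highest Mk cell, which leaves 6 of 9. E10.5 HPC differed from E10.5 Mac in 5 of 8 (48.4% of all genes), among them Erg (3.14) and Etv6 (1.75) higher in HPC; for Elk3 the ratio was -4.53 with all cells and 0.74 without the highest, and for Ets2 -1.50 and -0.10.

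**Figure D5:**
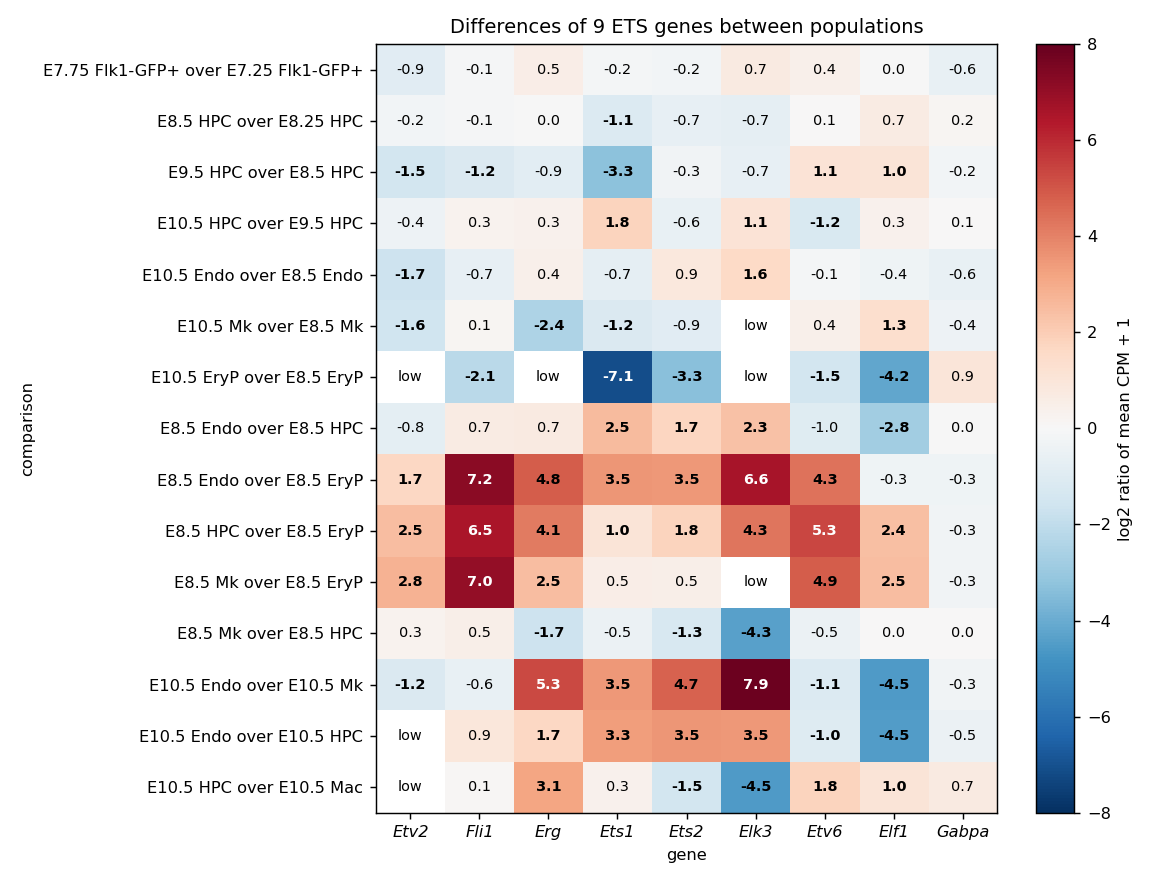
Log2 ratio of mean CPM + 1 for the 9 genes (x axis) in the 15 comparisons (y axis), in bold at 2-fold or more, with "low" where both means were under 1 CPM. Red cells fill the 3 rows over E8.5 EryP for most genes, and the endothelial rows at E10.5 are red for Ets1, Ets2 and Elk3 and blue for Elf1.

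Of the 17 other ETS genes listed, 11 were in the tables. Elf2 and Elk4 were the most widely found, with Elf2 in at least 72.0% and Elk4 in at least 58.5% of the cells of every population with more than 3 cells. E10.5 Mac, E9.5 HPC and E8.5 Endo each had 6 of the 11 in at least 50% of their cells, or 6, 4 and 5 after thinning. The share of all genes passing this cut was not computed. E10.5 Mac had Elf4 at 107.7 CPM, Etv5 at 74.0 CPM and Spi1, the myeloid factor PU.1, at 41.2 CPM and in 25 of 25 cells. Spi1 was also found in 91.3% of E9.5 HPC and 86.2% of E10.5 HPC cells. The median over the 11 genes of the mean CPM ran from 0.548 in E8.5 EryP to 18.5 in E10.5 Mac among the populations with over 3 cells. Against E10.5 HPC, 7 of 11 were over 2-fold higher by mean in E10.5 Endo and 1 lower, where 27.7% and 23.5% of all genes were. Of these 7, Fev, Elf3, Elk1 and Etv1 were found in only 2, 3, 5 and 7 of 61 Endo cells. Elf4 and Elk1 were found in smaller shares of Endo than of HPC cells (50.8 against 89.7%, and 8.20 against 16.1%). Elf3, Erf, Etv1, Etv5 and Fev were found in larger shares of Endo cells.

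The 8 listed partners of ETS factors were all in the tables. Runx1, which forms complexes with ETS factors at blood genes, was found in every cell of E8.5, E9.5 and E10.5 HPC and of both Mk populations (199 to 311 CPM) and in 19.0% of E8.5 Endo cells. The GABP partner subunits Gabpb1 and Gabpb2 had 42.5 and 34.0 CPM at E7.25 and 57.9 and 46.3 CPM in E8.5 Endo. Of the 24 listed target genes, 7 and 9 were found in at least 50% of cells at E7.25 and E7.75, 19 and 18 in E8.25 and E8.5 HPC, 12 in both E9.5 and E10.5 HPC, 14 and 15 in E8.5 and E10.5 Mk, 21 and 20 in E8.5 and E10.5 Endo, and 5 in each of E8.5 EryP and E10.5 Mac. The share of all genes passing this cut was not computed. Median genes detected per cell differed, with 9053 in E8.5 HPC, 7385 in E8.5 EryP and 6412 in E10.5 Endo. From E8.5 to E9.5 HPC, 14 of 23 listed target genes were over 2-fold lower and 0 higher, where 16.3% of all genes were lower. The median log2 ratio was -1.25 over the list and -0.05 over all genes. The list holds Cdh5, whose product the gate required at E8.5 and excluded at E9.5 and which had 124.3 and 5.35 CPM, and the 5 endothelial markers summed to 516 and 143.3 CPM, and the part of the gate in these counts cannot be told apart from that of stage. In E8.5 Endo over E8.5 HPC 15 of 24 were higher and 4 lower (median 1.78), where 18.4% and 13.3% of all genes were. Among the listed genes, the platelet genes Pf4 (4902 CPM) and Itga2b (603 CPM) were high in E10.5 Mk. The highest means of the list in E10.5 Endo were those of Kdr (1527 CPM), Flt1 (1172 CPM) and Cdh5 (953 CPM). Itga2b encodes CD41, which the E10.5 Mk gate required at a high level, and Cdh5 encodes CDH5, which the Endo gate required. The sort itself therefore selected for Itga2b and Cdh5.

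The 3 genes with the most similar profile over the 12 populations of at least 10 cells were found for each ETS gene by Pearson correlation of log2 mean CPM + 1 over 10316 genes. They were Hsf2, Cdc14b and Rasl11a for Etv2 (r from 0.91 to 0.95), Hhex, Meis1 and Klhl6 for Fli1 (0.93 to 0.96), Fam65a, Tspan8 and Tspan15 for Erg (0.93 to 0.97) and Ctnna1, Bcar1 and Tanc1 for Ets1 (0.93 to 0.97). For Ets2 they were Cnot6l, Rapgef5 and Slc31a2, for Elk3 Gatm, Mrc1 and Stab1, for Etv6 Meis1, Gm43984 and Klhl6, for Elf1 Btk, Sec11c and Rgs18, and for Gabpa Rbbp8, Ormdl1 and Bhlhb9. Gm43984 overlaps Etv6 on the same strand, so their reads can be split between them. Among the 9 genes themselves the highest correlations were 0.86 between Ets2 and Elk3 and 0.83 between Fli1 and Etv6, and the lowest was -0.71 between Ets1 and Elf1. The 12 points share flow cells and marker gates, and the Elk3 value of E10.5 Mac rests on 1 cell.

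By the GENCODE annotation on GRCm38, Etv2 lies at chr7:30633616-30635852, Erg at chr16:95359169-95586593 and Ets2 at chr16:95702075-95721051, and no other gene overlaps them. Fli1 (chr9:32422204-32542861) overlaps 4 experimentally unproven genes, a snRNA gene and an antisense gene, Ets1 (chr9:32636221-32757820) an antisense gene, Etv6 (chr6:134035700-134270158) 3 experimentally unproven and 2 antisense genes, Elk3 (chr10:93247414-93311135) Cdk17, Elf1 (chr14:79481194-79582494) Wbp4 and a miRNA gene, and Gabpa (chr16:84834925-84863779) Atp5j. The library kit does not mark strand, so reads of a gene and of an overlapping partner on the other strand cannot be told apart where their exons meet.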

How the data were processed

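RNA of single yolk sac cells was sequenced as 100-base pairs, and per the labels and the study's methods the authors aligned them to GRCm38 (Subread) and obtained gene counts from featureCounts. The authors deposited raw counts before (1073 cells) and after (926 cells) their quality filter, and a CPM table scaled by scran size factors, treated here as signal because it sums to between 699615 and 4176737 per cell. The strandedness of the counting is not given in the sources used here.

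Shares, means and medians over cells were computed with Python 3.11.15, numpy 2.4.6, pandas 2.3.3 and scipy 1.17.1. Each population is 1 sample, so no p-value or standard error was computed. A gene was detected at 1 count or more. For 0 cells of n, the limit given is 3 cells of n. Genes were compared between populations at a mean of 1 CPM or more in either. For detection at equal depth every cell was thinned to 840000 counts, and 46 shallower cells were left out. The comparison code was tested on simulated data. Named genes were the 9 ETS genes, other genes by list (counts and up to 4 examples of the highest mean), and the 3 genes of most similar profile. The values of 1 listed target gene are not reported here. The members and lists were chosen with earlier results of these data known.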

Additional observations from a re-analysis of the deposited data

How the results depend on the processing

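No paired analysis was possible because the replicate numbers only name cells and no result comes from a test. Detection at 10 counts or more (5 or more, added after seeing the data) gave Etv2 in 49.7% (53.7%) of E7.25 and 34.3% (45.0%) of E7.75 cells, and Fli1 in 66.0% (70.1%) and 72.1% (72.9%); joint detection at 10 counts was 38.1% and 24.3%, and without cells of both sexes (added after seeing the data) 57.9% and 56.9%. Thinning gave Fli1 in 79.5% of E7.75 cells and joint detection in 45.9%, with 42.2% in lane 8. Lane 7 of E7.75 alone gave Etv2 73.6%, Fli1 96.2% and both 69.8%. The log2 ratio of Etv2 for E7.75 over E7.25 was -0.23 with lane 7 over lane 7. The number of the 9 genes past 2-fold in that comparison moved from 0 to 1 without cells of both sexes and to 2, 2, 1 and 1 by lane. Without cells of both sexes it moved from 1 to 2 for E8.5 over E8.25 HPC and from 5 to 3 for E9.5 over E8.5 HPC. A pseudocount of 10 moved it from 5 to 3 (E9.5 over E8.5 HPC), 2 to 1 (Endo stages), 4 to 2 (Mk stages), 5 to 2 (EryP stages), 5 to 3 (E8.5 Mk over EryP) and 3 to 1 (E8.5 Mk over HPC). Means of log2 per cell moved it from 3 to 1 (E10.5 over E9.5 HPC), 2 to 5 (Endo stages) and 5 to 3 (EryP stages). A minimum of 10 CPM moved it to 1 (Endo stages), 2 (Mk stages), 2 (EryP stages) and 3 (E8.5 Mk over EryP). Leaving out the highest cell of each population, an alternative added after seeing the data, moved it from 5 to 3 for E9.5 over E8.5 HPC and for E10.5 HPC over Mac. The Elk3 ratio of E10.5 HPC over Mac reversed from -4.53 to 0.83 as a mean of log2 per cell and to 0.74 without the highest cell. Other counts of genes past 2-fold stayed within 1.5 times. Of 36 checks of the most similar genes, 18 kept at least 2 of the 3. With 1 sample a population, the spread between embryos was not measured.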
